A study of Mus musculus with 6 samples.

Results

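The cation-chloride cotransporters that set neuronal chloride, and the kinases that control them, were examined in the brains of mice with an activated human SRY transgene. The set held 6 genes: the importer Slc12a2, the exporters Slc12a5, Slc12a4 and Slc12a7, and the kinases Wnk1 and Stk39. All probes whose gene symbol in the deposited brain table is one of these were taken, which gave 11 of 25697 probes and 6 of 18138 symbols. The rule itself uses no measured value, but the genes were chosen with earlier results of these data known.

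Whole brain of male FVB mice (FVB/N in the study's methods) at postnatal day 6 was hybridized to 3 arrays for hSRY-OFF and 3 for hSRY-ON, each from a separate sample. By the study's definitions of hSRY-OFF and hSRY-ON, all mice of both groups carried a single copy of the same transgene at the H11 locus. It was driven by the CAG promoter, which is active in most cell types. The study also calls the array controls age-matched control pups and does not give their mothers. In hSRY-OFF the transgene was not recombined and the promoter drove the red fluorescent protein DsRed2, with the human gene silent. In hSRY-ON, Cre recombinase had removed DsRed2 and placed FLAG-tagged human SRY with EGFP behind the promoter. The Cre came as protein in the oocytes of Ddx4-Cre mothers, so that activation began at the single-cell stage and was not confined to the brain, and the profiled hSRY-ON mice themselves lacked the Ddx4-Cre transgene. As carriers born to Ddx4-Cre mothers are recombined, hSRY-OFF carriers would have had other mothers. Mother and litter then cannot be told apart from the genotype. hSRY-ON pups of this line are growth retarded and suckle little, which cannot be told apart from the genotype itself either. Whole brain mixes all cell types, and in such tissue fewer cells of a type and less RNA per cell cannot be told apart.

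Chloride decides whether GABA, the main inhibitory transmitter of the adult brain, excites or inhibits a neuron. The importer NKCC1, encoded by Slc12a2, uses the sodium gradient to carry sodium, potassium and chloride into the cell, and young neurons that rely on it hold much chloride and are depolarized by GABA. The exporter KCC2, encoded by Slc12a5, uses the potassium gradient to carry chloride out, and its increase in the first postnatal weeks of rodents turns GABA to hyperpolarizing, which is called the GABA switch. WNK kinases such as Wnk1 activate SPAK, encoded by Stk39, which phosphorylates both kinds of carrier, switching the importer on and the exporters off.

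The start of Slc12a5 is shown because regulators of this gene gave the called differences described further on. Slc12a5 has alternative first exons, which give isoforms with different amino termini. Egr4 and the E-box factors Usf1 and Usf2 are known to act on its promoter. The 250 bases before both annotated starts, on the plus strand of build GRCm38.p6 (chr2:164960596-164960845 for the upstream start and chr2:164967738-164967987 for the downstream start), read as follows in RefSeq, with a match to the E-box CACGTG in capitals.
Slc12a5 upstream start: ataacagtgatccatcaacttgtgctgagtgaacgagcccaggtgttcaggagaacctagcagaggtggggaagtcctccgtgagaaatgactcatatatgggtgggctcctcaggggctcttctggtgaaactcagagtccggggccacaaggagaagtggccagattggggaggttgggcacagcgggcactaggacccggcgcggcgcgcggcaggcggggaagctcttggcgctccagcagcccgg
Slc12a5 downstream start: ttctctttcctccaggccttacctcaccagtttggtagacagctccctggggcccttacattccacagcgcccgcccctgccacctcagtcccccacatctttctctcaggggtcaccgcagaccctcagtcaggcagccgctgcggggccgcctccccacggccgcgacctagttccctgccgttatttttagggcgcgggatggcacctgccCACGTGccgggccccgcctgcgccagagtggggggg
The search covered 7 windows of 300 bases, reaching from 250 before to 50 after the start, for 5 of the 6 genes, on both strands. Slc12a2 was not among these 5, so its start was not searched. The downstream start of Slc12a5 held the E-box beginning 36 bases before it, and the upstream start held none. Both overlapping windows of Slc12a7 (chr13:73763410-73763709 and chr13:73763447-73763746) held another copy of it. The E-box was in 7.15% of 32851 promoter windows of this length. The EGR motif GCGNGGGCG, present in 5.55% of all windows, and the SRY motif AACAAT, present in 10.7%, were in none of the 7 windows. A match is a description of letters and not of a bound site.

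The arrays were alike in overall signal, with a median intensity between 200.2 and 219.8 and between 13816 and 14377 probes detected above background (detection p-value under 0.05). Signals below are background corrected, quantile normalized and on the log2 scale, and a difference is hSRY-ON minus hSRY-OFF on that scale. Of the 14215 probes that were detected on at least 3 arrays and tested with limma, 308 (2.17%) were called at an adjusted p under 0.05, 120 higher and 188 lower in hSRY-ON. Differences at an unadjusted p under 0.05 were found for 20.9% of tested probes, and the groups did not overlap for 27.7%. Whether the transgene itself was expressed could not be read here, as no probe for human SRY was analysed.

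None of the cotransporter and kinase probes was called. Of the 11 probes, 8 for 5 genes passed the detection filter, and 0 of these 8 had an adjusted p under 0.05, where 2.17% of all probes did. At an unadjusted p under 0.05 there were 4, with 1 higher and 3 lower in hSRY-ON, and 4 had groups that did not overlap, again 1 higher and 3 lower. A pair of the lower probes, for Slc12a7 and for a dim probe of Slc12a2, passed the filter through hSRY-OFF alone, so these counts carry no weight as support. The 8 differences ran from -0.50 to 0.44 with a median of -0.15, which became -0.00681 over the 6 probes detected in both groups. Over all tested probes the median was 0.0048 and the quartiles were -0.14 and 0.14.

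**Figure D1:**
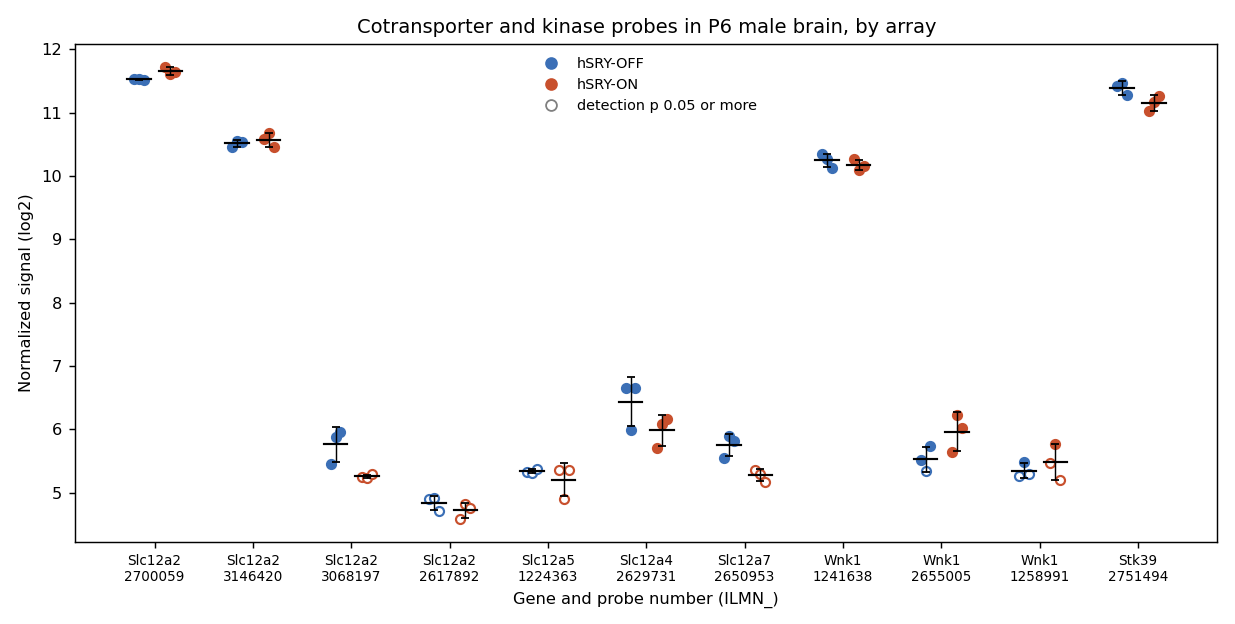
Normalized log2 signal (vertical axis) of the 11 cotransporter and kinase probes (horizontal axis) on each of the 3 hSRY-OFF and 3 hSRY-ON arrays. Points are arrays, open where the detection p-value was 0.05 or more, with bars for the mean and SD. All 6 points of the only Slc12a5 probe are open, and the 3 hSRY-ON points of Slc12a7 are open.

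The importer Slc12a2 was read by 4 probes that gave different answers. Its brightest probe, ILMN_2700059, measured 11.53, 11.53 and 11.52 in hSRY-OFF and 11.73, 11.61 and 11.65 in hSRY-ON. All 3 hSRY-ON arrays lay above the hSRY-OFF arrays, which were nearly identical to each other. The difference was 0.14 (SE 0.074, 95% interval -0.04 to 0.31) with an adjusted p of 0.342 in limma, so it was not called, although the largest increase that the interval allows is 1.24-fold. On the deposited linear scale the same probe read 3487, 3062 and 2989 in hSRY-OFF and 3628, 3096 and 3283 in hSRY-ON, where the groups overlapped.

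The other Slc12a2 probes did not repeat that separation. ILMN_3146420 measured 10.45, 10.55 and 10.54 in hSRY-OFF and 10.59, 10.67 and 10.45 in hSRY-ON, with overlapping groups and a difference of 0.06 (SE 0.087, adjusted p 0.754 in limma). The dim ILMN_3068197 pointed the other way, with 5.44, 5.88 and 5.96 in hSRY-OFF and 5.25, 5.24 and 5.29 in hSRY-ON. It was detected on all 3 hSRY-OFF arrays and on 0 of 3 hSRY-ON arrays, so its hSRY-ON level was not measured. On the corrected scale the hSRY-OFF mean lay 1.25-fold above the dimmest detected probe of the hSRY-ON arrays. The fitted difference was -0.50 (SE 0.14, adjusted p 0.107 in limma). As the probe was tested only because of hSRY-OFF, that p carries no weight. Background correction widens the spread of dim probes. Without it the fitted difference was -0.14, so the fold is no lower limit. ILMN_2617892 was not detected on any array.

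The exporter Slc12a5 had 1 probe, ILMN_1224363, and it was not well above background anywhere. Its deposited signal was 199, 187 and 187 in hSRY-OFF and 192, 167 and 188 in hSRY-ON, below the median probe of each array. The detection p-values were 0.0689, 0.0739 and 0.0702 in hSRY-OFF and 0.0777, 0.247 and 0.0639 in hSRY-ON. In normalized form these readings were 5.33, 5.31 and 5.37 in hSRY-OFF and 5.35, 4.90 and 5.36 in hSRY-ON, with hSRY-ON array 2 below the other arrays, which lay within 0.06 of each other. The probe was not tested, and neither the presence of the transcript nor a difference in it could be read at this signal.

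Slc12a4 and Slc12a7, which encode the exporters KCC1 and KCC4 and serve mainly in cell volume control, were both dim. Slc12a4 (ILMN_2629731), detected on all 6 arrays, measured 6.66, 5.99 and 6.66 in hSRY-OFF and 5.71, 6.08 and 6.17 in hSRY-ON. The groups overlapped through hSRY-OFF array 2, and the difference of -0.45 (SE 0.21, 95% interval -0.94 to 0.04) had an adjusted p of 0.274 in limma and became -0.15 without background correction. Slc12a7 (ILMN_2650953) measured 5.55, 5.89 and 5.81 in hSRY-OFF and 5.36, 5.29 and 5.17 in hSRY-ON, with no overlap. It was detected on all 3 hSRY-OFF arrays and on no hSRY-ON array, so its hSRY-ON level was not measured. On the corrected scale the hSRY-OFF mean lay 1.24-fold above the dimmest detected probe of the hSRY-ON arrays. That fold depends on the background correction and is no lower limit. Its fitted difference was -0.48 (SE 0.11, adjusted p 0.0764 in limma) and -0.13 without background correction. As the probe was tested only because of hSRY-OFF, where it was brighter, that p carries no weight.

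The kinase Stk39, known as SPAK, was bright. Its probe ILMN_2751494 measured 11.42, 11.47 and 11.27 in hSRY-OFF and 11.02, 11.17 and 11.27 in hSRY-ON. The groups were separated by less than the rounding, between array 3 of hSRY-OFF and array 3 of hSRY-ON, and on the deposited scale they crossed there, at 2522 and 2527. The difference was -0.24 (SE 0.099, 95% interval -0.47 to -0.0023), with an adjusted p of 0.235 in limma.

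Wnk1, the kinase upstream of SPAK, was read by 3 probes. The bright ILMN_1241638 measured 10.35, 10.26 and 10.13 in hSRY-OFF and 10.26, 10.10 and 10.17 in hSRY-ON, a difference of -0.07 (SE 0.091, adjusted p 0.703 in limma) with overlapping groups. The dim ILMN_2655005 measured 5.51, 5.33 and 5.73 in hSRY-OFF and 5.64, 6.23 and 6.02 in hSRY-ON. It was detected on 2 hSRY-OFF and 3 hSRY-ON arrays, and its difference of 0.44 (SE 0.17) was of opposite sign to that of the bright probe, with an adjusted p of 0.206 and overlapping groups. Without background correction it was 0.12. ILMN_1258991, detected on 1 array of each group, was not tested. Which transcripts of Wnk1 each probe reads was not tested.

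**Figure D2:**
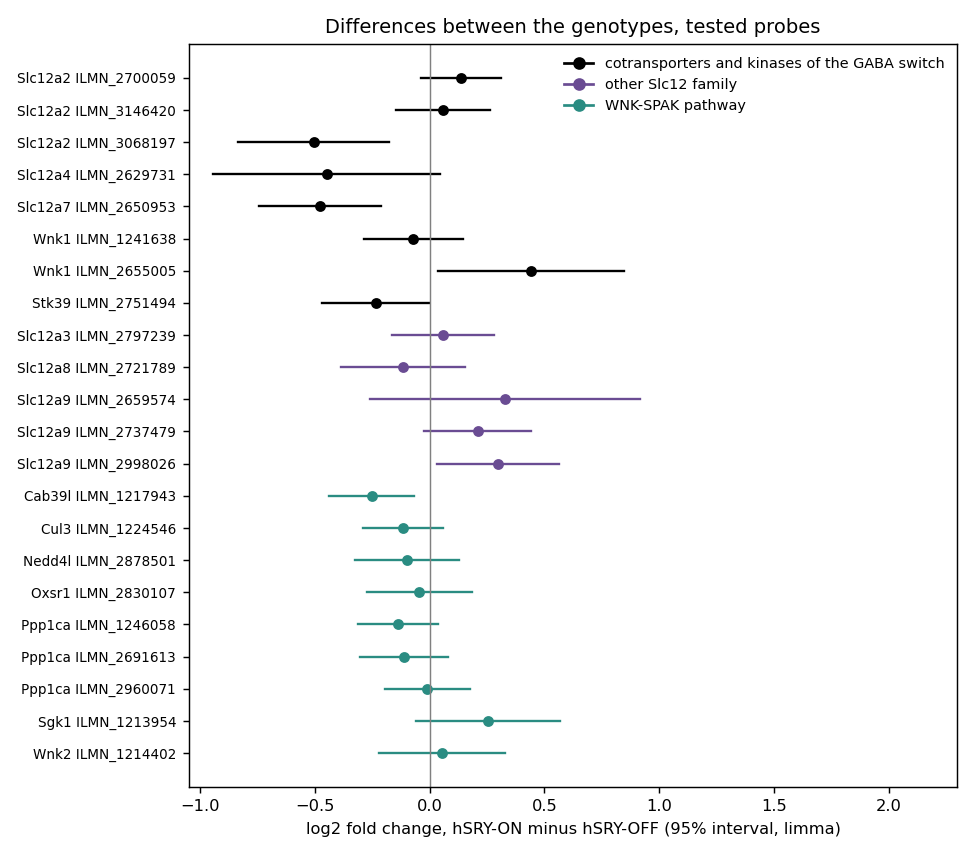
Difference between the genotypes (horizontal axis, hSRY-ON minus hSRY-OFF, log2) for each tested probe of the cotransporters and kinases, Slc12a3, Slc12a8, Slc12a9 and the WNK-SPAK pathway (vertical axis). Points are limma estimates and lines are 95% intervals, unadjusted for the number of probes. The intervals of the bright Slc12a2 and Wnk1 probes include 0, those of Stk39 and Cab39l lie below it, as do those of Slc12a7 and the dim Slc12a2 probe, which were detected in hSRY-OFF alone, those of the dim Wnk1 probe and of Slc12a9 ILMN_2998026 lie above it, and no probe shown was called after adjustment.

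The balance of exporter to importer was taken per array as the normalized Slc12a5 signal minus that of the brightest Slc12a2 probe. Signals of different probes have no common scale, so that only the difference of this balance between arrays can be read. It was -6.20, -6.22 and -6.16 in hSRY-OFF and -6.38, -6.71 and -6.29 in hSRY-ON. All 3 hSRY-ON arrays were lower than the hSRY-OFF arrays. The means were -6.19 ± 0.033 and -6.46 ± 0.22 (SD, n = 3 each), a difference of -0.27 with an exact permutation p of 0.1 (two-sided), the smallest that 3 against 3 arrays can give.

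The Slc12a5 part of the balance was a signal at background. Of the parts of this difference, the Slc12a2 signal was higher by 0.14 in hSRY-ON, which enters the balance with its sign turned, and the mean Slc12a5 signal differed by -0.13. The Slc12a5 difference came mainly from hSRY-ON array 2 (exact permutation p = 0.8, n = 3 each). Without hSRY-ON array 2 the difference in balance was -0.14, still without overlap. The Slc12a5 readings lay 0.09 to 0.47 below the dimmest detected probe of their arrays. With Slc12a5 set to that level the difference was -0.15 (exact permutation p = 0.1, n = 3 each), which reads the Slc12a2 signal against that level and is no measure of Slc12a5. With the mean of both Slc12a2 probes detected on all arrays it was -0.23 and the groups overlapped (exact permutation p = 0.2, n = 3 each). The ratio of the deposited signals, Slc12a2 over Slc12a5, ran from 15.95 to 17.54 in hSRY-OFF and from 17.42 to 18.87 in hSRY-ON and overlapped too (exact permutation p = 0.2, n = 3 each). The groups also overlapped with median scaling in place of quantile normalization (difference -0.24, exact permutation p = 0.2).

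**Figure D3:**
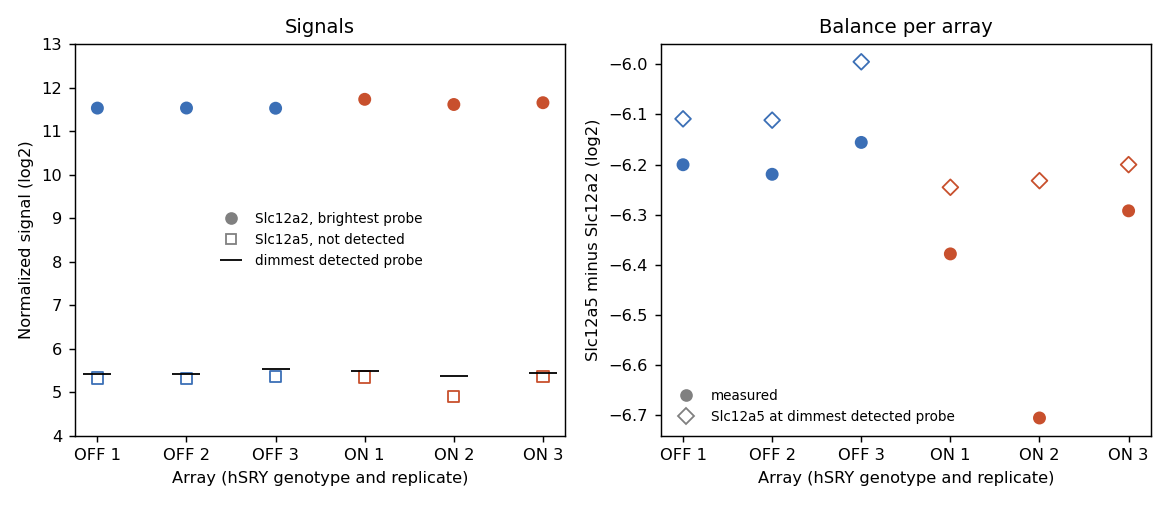
Left, normalized log2 signal of the brightest Slc12a2 probe and of the only Slc12a5 probe on each array, with a dash at the dimmest detected probe. Right, the balance, Slc12a5 minus Slc12a2 (log2), as measured and with Slc12a5 at that dash. hSRY-ON array 2 is lowest as measured, at -6.71, and hSRY-ON array 1 is lowest with the dash, at -6.25.

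The other members of the Slc12 family were compared next. Of their 13 probes 6 were tested, 5 higher and 1 lower in hSRY-ON with a median difference of 0.13, and 0 were called by limma, with 1 at an unadjusted p under 0.05. Slc12a9, an orphan member, had 3 tested probes above 0. ILMN_2998026 measured 8.78, 9.11 and 9.06 in hSRY-OFF and 9.34, 9.33 and 9.17 in hSRY-ON, without overlap (difference 0.30, SE 0.11, adjusted p 0.196). Its ILMN_2737479 (0.21, adjusted p 0.280) was separated by less than the rounding, at 8.22 on array 3 of each group. On the deposited scale that probe overlapped, with 476 on hSRY-OFF array 1 and 435 on hSRY-ON array 3. ILMN_2659574 overlapped when normalized (0.33, adjusted p 0.497). The kidney carrier Slc12a1 was not detected by any of its 4 probes. Slc12a3, the thiazide-sensitive carrier, was read by 1 of 3 probes, with a difference of 0.06 (adjusted p 0.766), and the single probe of Slc12a8 differed by -0.12 (adjusted p 0.603).

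The list of WNK-SPAK pathway genes held 12 genes, of which 10 were on the array and 9 probes for 7 genes were tested. In hSRY-ON 2 were higher and 7 lower, with a median of -0.099 and 0 calls by limma, and 1 had an unadjusted p under 0.05. That 1 was Cab39l, whose product is a scaffold that activates SPAK. It measured 9.64, 9.60 and 9.54 in hSRY-OFF and 9.26, 9.35 and 9.40 in hSRY-ON, without overlap, a difference of -0.25 (SE 0.079, adjusted p 0.136). Oxsr1, the close relative of Stk39, differed by -0.05 (adjusted p 0.832) and Wnk2 by 0.05 (adjusted p 0.836). Sgk1, a hormone-induced kinase that acts on WNK signalling, differed by 0.25 (SE 0.13, adjusted p 0.323), with hSRY-ON at 12.40, 12.15 and 11.89 and hSRY-OFF between 11.84 and 11.95. Wnk4, Cab39 and Klhl2 were not tested for want of detection, and Wnk3 and Klhl3 were not listed.

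Genes known to regulate Slc12a5 gave the only calls among the transport lists, and both were lower in hSRY-ON. The list had 11 tested probes, 5 higher and 6 lower with a median of -0.06, and 2 were called, beside 2.17% of all tested probes. Egr4, an activity-dependent transcription factor that drives Slc12a5, measured 6.63, 6.75 and 6.76 in hSRY-OFF and 6.16, 6.01 and 6.23 in hSRY-ON. All hSRY-ON arrays lay below all hSRY-OFF arrays, and Egr4 fell by 0.58 on the log2 scale (SE 0.090, adjusted p 0.0348 in limma). Prkca, of the protein kinase C family that phosphorylates KCC2, measured 6.84, 6.87 and 6.91 in hSRY-OFF and 6.37, 6.44 and 6.50 in hSRY-ON and fell by 0.44 (SE 0.076, adjusted p 0.0413). Both genes were dim, and without background correction their differences were -0.21 and -0.18, with adjusted p of 0.0516 and 0.0989. Both calls were also lost when any array other than hSRY-ON array 3 was left out, with adjusted p from 0.0768 to 0.118 for Egr4 and from 0.0964 to 0.132 for Prkca.

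Usf1, the E-box factor, was higher in hSRY-ON on both of its probes but was not called. ILMN_2435505 measured 7.21, 7.01 and 7.22 in hSRY-OFF and 7.44, 7.48 and 7.73 in hSRY-ON, a difference of 0.40 (SE 0.11, unadjusted p 0.00747, adjusted p 0.102 in limma). ILMN_1254639 measured 8.22, 8.15 and 8.26 against 8.50, 8.35 and 8.38, a difference of 0.20 (SE 0.082, adjusted p 0.226). The groups did not overlap on either probe. Its partner Usf2 differed by 0.05 and -0.06 on its tested probes (adjusted p 0.846 and 0.895). Bdnf, the neurotrophin that alters Slc12a5 levels, differed by -0.28 (adjusted p 0.386), and its receptor Ntrk2 by 0.04 and 0.30 (adjusted p 0.825 and 0.269). Ckb, the creatine kinase that binds KCC2, differed by -0.11 (adjusted p 0.483), and the GABA-B receptor subunit Gabbr1 by -0.08 (adjusted p 0.641). The repressor Rest and the kainate receptor subunit Grik2 were not detected, and Neto2 was not listed.

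**Figure D4:**
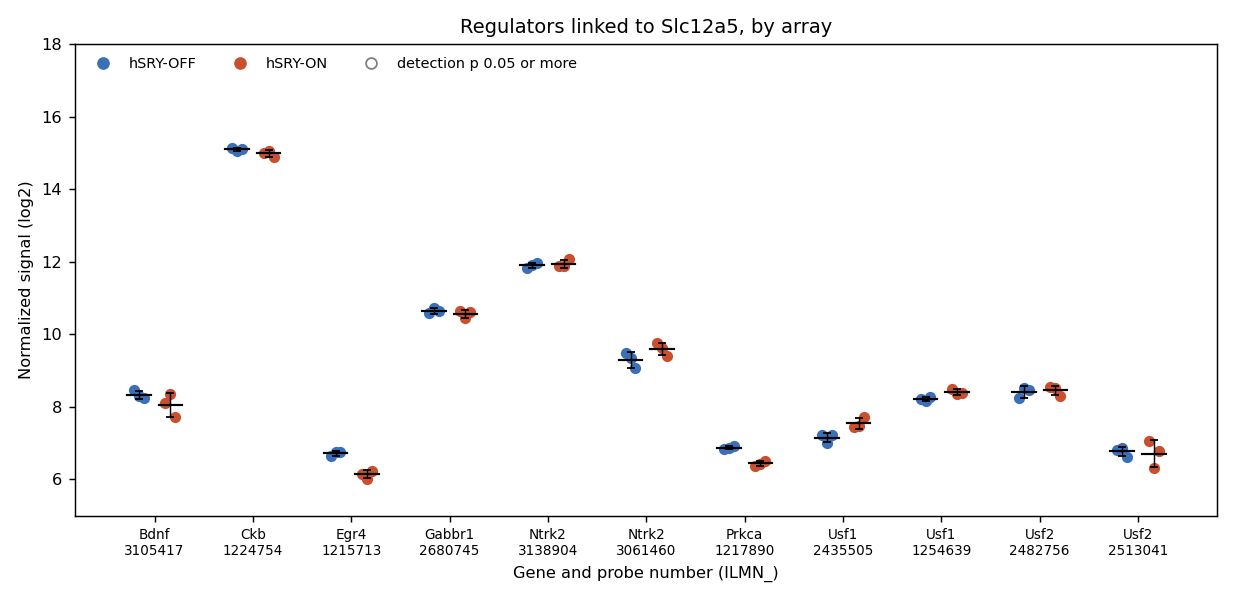
Normalized log2 signal (vertical axis) of the 11 tested probes of Slc12a5 regulators (horizontal axis) on each array, with the mean and SD of each group of 3. Egr4 and Prkca are lower in all 3 hSRY-ON arrays and both Usf1 probes are higher in all 3.

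Other routes for chloride and bicarbonate, which GABA receptors also pass, gave 14 tested probes, 6 higher and 8 lower, with a median of -0.10 and 0 calls by limma (3 at an unadjusted p under 0.05). The neuronal chloride-bicarbonate exchanger Slc4a3 had 4 tested probes, and all 4 differences were below 0. ILMN_2782061 measured 9.99, 9.96 and 10.11 in hSRY-OFF and 9.66, 9.75 and 9.74 in hSRY-ON, without overlap (difference -0.30, SE 0.081, adjusted p 0.10). Its other probes differed by -0.16, -0.19 and -0.17 and overlapped. Clcn3, a vesicular chloride-proton exchanger, differed by 0.43 (SE 0.15, adjusted p 0.164) and 0.15 on its tested probes. Car2, the carbonic anhydrase abundant in glia, differed by -0.25 (SE 0.085, adjusted p 0.156) without overlap, and the neuronal Car7 by -0.41 (SE 0.21, adjusted p 0.306) with overlap.

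The sodium-potassium pump supplies the gradients that both kinds of cotransporter spend. Its subunits and FXYD partners gave 9 tested probes, 4 higher and 5 lower, with a median of -0.04, 0 called by limma and 1 at an unadjusted p under 0.05. The beta subunit Atp1b1 measured 14.54, 14.54 and 14.43 in hSRY-OFF and 14.39, 14.54 and 14.44 in hSRY-ON, with overlapping groups (difference -0.05, SE 0.082, adjusted p 0.791). Over all 5 transport and regulator lists, 49 probes were tested and 2 were called, beside 2.17% of all probes. Of these 49, 20.4% had an unadjusted p under 0.05 and 30.6% had groups that did not overlap, beside 20.9% and 27.7% of all probes.

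Markers of cell types were set beside these values, since several of the carriers differ between cell types. Among neuronal markers of the labelled whole brain, Stmn2, Syn1, Thy1 and Eno2 were detected on every array, the probes for Snap25 and Nefl were not detected, and Rbfox3 and Nefh were not listed. In hSRY-ON 9 of the 11 tested neuronal probes were lower, with a median of -0.14 and 0 calls (2 at an unadjusted p under 0.05), and their summed linear signal ran from 81100 to 84880 in hSRY-OFF and from 80140 to 81440 in hSRY-ON. Immature neuron probes were higher for 10 of 11, with a median of 0.13, 0 calls (1 at an unadjusted p under 0.05) and overlapping sums of 51850 to 53530 and 51780 to 55490.

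Called probes were found among markers of glia, ependyma and choroid plexus. Over all tested probes 2.17% were called and 20.9% had an unadjusted p under 0.05. Myelin markers were lower for 13 of 14 probes (median -0.57, 3 called: Mobp on 2 probes and Ugt8a), with sums of 31670 to 40120 in hSRY-OFF and 24130 to 24950 in hSRY-ON. Oligodendrocyte precursor markers were lower for 5 of 6 (median -0.20, Gpr17 called at -0.73), with sums of 18280 to 18640 and 15550 to 15880. Pdgfra went the other way, higher without overlap (0.19, adjusted p 0.254), and Cspg4 differed by -0.07 (adjusted p 0.683). Astrocyte markers were higher for 4 and lower for 6 of 10 probes (median -0.13). Gfap (-0.83) and Aqp4 (-0.81) were called lower, Aldoc differed by 0.28 without overlap and was not called, and the sums overlapped, at 43570 to 43870 and 41980 to 47600. Choroid plexus markers, of a tissue where Slc12a2 is abundant, were higher for 10 of the 12 probes detected in both groups (median 0.28, Aqp1 called at 0.67), with sums of 16590 to 19570 and 19980 to 25000. Kl, the 1 further tested probe of that list, was detected in hSRY-ON alone. Kcne2 went the other way, lower without overlap (-0.46, adjusted p 0.109), and Calml4 differed by -0.05. Of 4 ependymal probes all were lower and Pltp was called (-0.56). Endothelial probes (6 of 9 lower), microglial probes (7 of 10 higher) and erythroid probes (3 of 4 lower) had 0 calls, with 6, 3 and 0 at an unadjusted p under 0.05. The 6 endothelial probes went both ways, 4 lower and 2 higher, the higher being Ly6c1 (0.64, adjusted p 0.0513) and Flt1 (0.49, adjusted p 0.131). Summed signals were higher on every hSRY-ON array than on any hSRY-OFF array for choroid plexus and microglia (3161 to 3453 in hSRY-OFF and 3911 to 4251 in hSRY-ON). The brightest probes weigh most in such sums, Ttr in choroid plexus (difference 0.37) and C1qc and C1qb in microglia (0.45 and 0.38). In microglia, Cx3cr1 (-0.04) and both tested Aif1 probes (-0.06 and -0.12) were lower. Summed signals were lower on every hSRY-ON array for myelin, precursors, ependyma (1416 to 1692 and 1033 to 1299) and endothelium (10030 to 10270 and 8313 to 9254). The part of these cell types in the cotransporter differences was not tested.

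**Figure D5:**
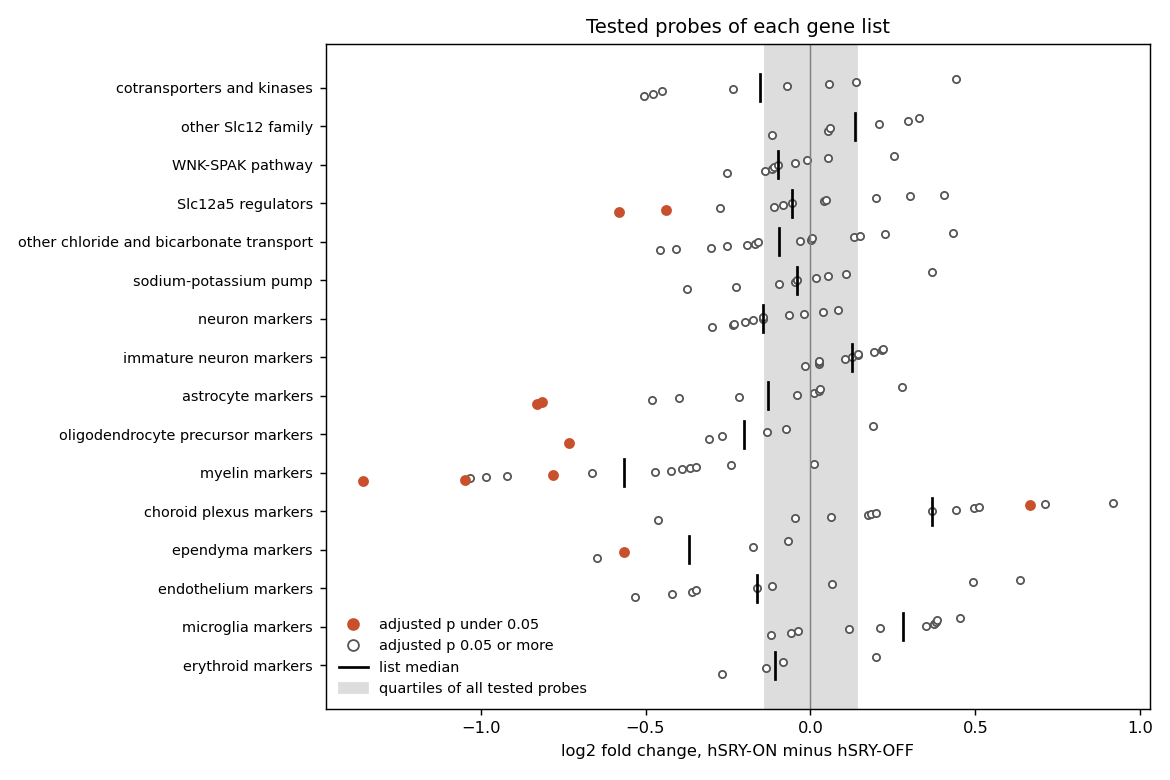
Difference between the genotypes (horizontal axis, hSRY-ON minus hSRY-OFF, log2) of every tested probe in each gene list (vertical axis), filled where the adjusted p was under 0.05, with the list median as a bar and the quartiles of all tested probes, -0.14 to 0.14, shaded. The cotransporter and kinase probes spread from -0.50 to 0.44 with none filled, and the myelin median is the lowest at -0.57.

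The probes most like Slc12a2 and Slc12a5 over the 6 arrays were found by the root mean square difference between profiles centred on their own means, among 12710 probes detected on all arrays. For the brightest Slc12a2 probe the nearest were Mfap3 (0.0127), Ldb2 (0.0169), Ttc3 (0.0187), Armc10 (0.0219) and Syt16 (0.0234), where the profile of Slc12a2 itself had a root mean square of 0.0767. None of these genes was called (adjusted p 0.30 to 0.417 in limma). For Slc12a5 the nearest were Smyd5 (0.0429), Hnrnph3 (0.0472), Plekhf2 (0.0479), Nacc1 (0.0541) and Glrx5 (0.0569), against its own 0.165. The Slc12a5 profile is that of an undetected probe, and its neighbours were chosen to follow it, including its low hSRY-ON array 2.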

How the data were processed

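Whole-brain RNA of 3 hSRY-OFF and 3 hSRY-ON mice was measured on Illumina MouseRef-8 v2.0 arrays, and groups and replicate numbers were taken from the labels. The authors deposited a linear bead signal intensity per probe and array, not normalized, and a detection p-value beside each deposited intensity. The study's methods name the package TCC without settings, and the submitters' processing notes name limma without a role. TCC was not used here. The table held 0 columns of other series.

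Intensities were corrected in R 4.3.3 with limma 3.58.1 (normexp with control mean and SD inferred from detection p-values, offset 16), quantile normalized and put on the log2 scale, which makes dim probes more variable. A probe was tested if its detection p was under 0.05 on at least 3 of 6 arrays (14215 probes). Two-sided tests came from lmFit and eBayes with a group term only, p-values were adjusted by Benjamini-Hochberg over the tested probes, and 0.05 was the threshold of a call. Adjusted p-values are from this fit unless an alternative is named. Precision is limited by the 3 arrays per group, and p-values measure the spread between these samples. Single values were compared with an exact permutation test, which cannot go below 0.1. For member probes detected in hSRY-OFF alone, the hSRY-OFF mean was compared with a level per hSRY-ON array. That level was the higher of the dimmest detected probe and the probe's own signal. The resulting fold depends on the background correction. Summed marker levels use the brightest tested probe of each gene on the linear scale.

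Named genes were set by rule: all probes of the 6 genes, every called probe of the listed genes, other listed genes with values (some listed genes are not reported here by name), and the 5 nearest profiles for Slc12a2 and for Slc12a5. The 6 genes and all lists were chosen with earlier results of these data known. Listed symbols were matched to the table directly or through RefSeq synonyms (Clcn4 as Clcn4-2). Promoter sequences are from RefSeq, build GRCm38.p6. The steps were tested on simulated data. Alternatives covered background correction, normalization, filter, replicate block, prior, array weights and each array left out. Plots were made in Python 3.11.15 with matplotlib 3.10.9.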

Additional observations from a re-analysis of the deposited data

How the results depend on the processing

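The number of cotransporter and kinase probes called by limma was 0 under all 15 alternatives, with 0 to 5 at an unadjusted p under 0.05, and the 110 values of the 8 tested probes kept their direction. The closest to a call was Stk39, at an adjusted p of 0.0537 with a prior that follows signal and is robust to outliers. The number of all probes called, 308 in the report, was 1317 without background correction and 123 without a filter. It was 860 with normexp fitted to the signals and an offset of 50, which changes both the background estimate and the offset. It was 705 with a detection p under 0.01 on all 6 arrays, 1447 with the trended robust prior and 480 with array weights. With the replicate block it was 0 (2906 at an unadjusted p under 0.05). Leaving out 1 array gave 0 to 417, with 417 without hSRY-ON array 3 and 0 or 1 without any other (2236 to 3150 at an unadjusted p under 0.05). The number of listed probes called, 2 in the report, became 0 without a filter and 0 with the replicate block (10 at an unadjusted p under 0.05 in each), and 0 to 2 without 1 array (7 to 14 at that p). Elsewhere it was 2 or 3, not always of the same genes. Without background correction Egr4 and Prkca were both lost. Prkca was also lost with normexp on the signals and an offset of 50 (adjusted p 0.0552) and with the trended robust prior (0.105). The cause was not tested, except that fewer arrays or more probes enter some fits.

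The Slc12a5 to Slc12a2 balance differed by -0.35 to -0.14 between the groups over 13 alternatives, with -0.17 without background correction and overlapping groups under median scaling (-0.24). The replicate block left it at -0.27 (exact p of 0.25, the smallest for 3 pairs). Same-numbered arrays had correlations of their deviations of 0.0404, 0.0294 and 0.0251. These were small, but every array correlated best with its own number. Whether the numbers pair the arrays cannot be told from these values. The balances with Slc12a5 at the dimmest detected probe and with the mean of Slc12a2 probes were added after seeing the data. A balance over detected Slc12a5 probes was not run, as none was detected. Signal over background limits the result most for Slc12a5, Slc12a7 and the dim probes of Slc12a2 and Wnk1.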
